A study of Homo sapiens with 4 samples.

Results

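Alternative splicing gives epithelial and mesenchymal cells different forms of the same proteins, and a small group of RNA-binding proteins sets much of that choice. ESRP1 and ESRP2 are the epithelial members of the group. In cell lines they promote epithelial exons in transcripts such as those of FGFR2, ENAH and CTNND1, while QKI and RBFOX2 favour the mesenchymal forms of many of the same genes. MBNL1 and MBNL2 repress splicing patterns typical of embryonic stem cells, and PTBP1 represses exons used in neurons and muscle. The 10 genes described here, chosen by Entrez gene ID, are these 7 regulators and 3 genes that are spliced differently in epithelial and mesenchymal cells. All 10 were listed in every library, among 19390 gene IDs listed in any.

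The cells were H1, an established wild-type line of human embryonic stem cells, kept in a custom mTeSR1 medium. The 4 libraries are undifferentiated cells at day 0, cells at day 2, grown with activin A (40 ng/ml) and BMP4 (50 ng/ml), and cells at days 3 and 4, which had the same activin A and BMP4 step to day 2 and were grown from then on with VEGF (40 ng/ml) and bFGF (50 ng/ml). Each day is 1 library, so no difference below has a replicate check and no p-value is given. The 95% intervals cover counting error only, and nothing in the labels says how many cultures stand behind a library. In bulk RNA, fewer cells of a type and less RNA per cell cannot be told apart.

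The libraries held 5.04 to 5.49 M expected counts, and 1 read was worth 0.182 to 0.196 CPM (expected counts scaled to library size, with totals adjusted to one another). All 10 markers of pluripotent cells were above 0 in all 4 libraries, and their summed level was 10908, 4044, 2883 and 2198 CPM at days 0, 2, 3 and 4. Of these, SOX2 had 1473 expected counts at day 0 but only 4, 4 and 7 at days 2, 3 and 4. LIN28A alone held 1328 CPM of the sum at day 4. The 17 mesenchymal genes and EMT factors summed to 1264, 7864, 18486 and 19297 CPM, and the 25 epithelial genes to 2631, 2244, 2309 and 1690 CPM. Endothelial markers summed to 256, 432, 1087 and 1491 CPM, primitive streak markers to 1.75, 665, 370 and 91.8 CPM, and fibroblast markers, which share 4 collagen and lumican genes with the mesenchymal list, to 737, 875, 1626 and 2879 CPM. Single genes carried much of other sums too: FN1 held 10412 mesenchymal CPM at day 4, and KDR 209 endothelial CPM at day 0. Blood cell markers stayed at 23.0 to 34.9 CPM. The globin gene HBZ was not found under that symbol in any library and was counted as 0. These cell type levels move with the day, and their part in the results below was not tested.

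Of the 10 genes, 3 lay at least 2-fold apart between day 4 and day 0: ESRP1 and ESRP2 were lower and MBNL2 was higher at day 4. ESRP1 was 5.12-fold lower at day 4 (95% counting interval 4.51 to 5.81), ESRP2 2.13-fold lower (1.76 to 2.60) and MBNL2 9.48-fold higher (6.33 to 14.8). The rule asked for a difference of at least 1 in log2(CPM + 1) in a gene of 1 CPM or more in either library, and 27.9% of 15652 genes met it, 16.1% higher and 11.9% lower at day 4. The share of the 10 is thus close to the background. Average transcript length, a coarse readout of isoform use, changed by at least 10% in 0 of the 10 genes, where 2.06 to 2.83% of all genes did so in the 4 comparisons made. For ESRP2, which has a single transcript, a change of that size could not occur. The choice of exon 11a alone, 63 bases of an ENAH transcript of about 13162 bp, could not bring one about either. Nor could the exchange of FGFR2 exon IIIb for another of nearly equal length, or the CTNND1 exons of 63, 87 and 18 bases. The median GENCODE lengths of the CTNND1 isoform 1 and 3 groups, 6226 and 5750 bases, also lie less than 10% apart. For these exon choices the count of 0 therefore carries no information.

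The sequences below are exons and coding ends by which known epithelial, mesenchymal and developmental isoforms of these genes differ. Each is short next to its transcript. They were read from GENCODE v29 transcripts on GRCh38 that carry the transcript IDs listed with each gene in the deposited data. In these models whole transcripts can differ by far more: those of ENAH are 2758 and 13168 bases long. The data themselves use hg19 and carry no coordinates. Capitals mark the exon, and the 12 lower-case bases on each side belong to the neighbouring exons. ENAH, an actin regulator of the Ena/VASP family, includes exon 11a (chr1:225504991-225505053, minus strand, 63 bases) in epithelial cells, and 1 of its 2 transcripts holds it.
ENAH exon 11a: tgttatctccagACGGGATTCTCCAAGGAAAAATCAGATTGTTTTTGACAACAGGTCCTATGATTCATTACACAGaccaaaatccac

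FGFR2, a receptor for fibroblast growth factors, uses exon IIIb in epithelial cells (chr10:121518682-121518829, minus strand, 148 bases) where mesenchymal cells use another exon in its place. The choice sets which ligands the third immunoglobulin domain binds. Of the 11 listed transcripts, 4 hold IIIb.
FGFR2 exon IIIb: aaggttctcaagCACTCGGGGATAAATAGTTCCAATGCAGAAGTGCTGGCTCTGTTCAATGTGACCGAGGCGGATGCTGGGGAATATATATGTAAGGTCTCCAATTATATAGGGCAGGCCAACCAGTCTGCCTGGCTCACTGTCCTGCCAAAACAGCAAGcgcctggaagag

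CTNND1 encodes p120-catenin, which binds the cytoplasmic tail of cadherins. Its 22 transcripts differ in the coding start and in the short exons A (chr11:57814311-57814373, plus strand, 63 bases, in 19 of 22), B (chr11:57815915-57816001, plus strand, 87 bases, in 9 of 22) and C (chr11:57806461-57806478, plus strand, 18 bases, in 6 of 22).
CTNND1 exon A: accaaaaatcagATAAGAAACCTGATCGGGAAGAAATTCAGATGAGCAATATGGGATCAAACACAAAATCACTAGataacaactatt
CTNND1 exon B: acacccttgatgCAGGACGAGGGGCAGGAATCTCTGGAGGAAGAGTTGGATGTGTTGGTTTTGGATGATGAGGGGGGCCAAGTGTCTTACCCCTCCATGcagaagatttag
CTNND1 exon C: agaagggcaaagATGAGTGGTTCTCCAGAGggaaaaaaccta

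The muscleblind genes MBNL1 and MBNL2 share an alternative exon of 36 bases, identical at 31 of its 36 positions (86.1%). It lies at chr3:152455542-152455577 (plus strand) in MBNL1, where 3 of 7 transcripts hold it, and at chr13:97365136-97365171 (plus strand) in MBNL2, where 1 of 2 does.
MBNL1 36-base exon: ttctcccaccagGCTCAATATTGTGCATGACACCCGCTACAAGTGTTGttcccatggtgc
MBNL2 36-base exon: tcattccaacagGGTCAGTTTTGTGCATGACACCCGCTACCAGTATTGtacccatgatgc

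QKI isoforms share their first 934 coding bases and differ in how the coding sequence ends. The ends decide where the protein goes: QKI-5 is nuclear and acts in splicing, while QKI-6 and QKI-7 are found largely in the cytoplasm. QKI lies on chromosome 6 (plus strand). Another of its listed transcripts, with a different coding end of 23 bases, is not printed. Here the capitals mark the coding bases after the shared part, of which QKI-5 has 89, QKI-6 has 23 and QKI-7 has 41, after the last 12 shared bases in lower case.
QKI-5 coding end: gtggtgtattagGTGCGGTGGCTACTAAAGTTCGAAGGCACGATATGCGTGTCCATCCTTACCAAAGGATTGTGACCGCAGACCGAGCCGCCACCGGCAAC
QKI-6 coding end: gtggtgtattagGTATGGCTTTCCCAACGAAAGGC
QKI-7 coding end: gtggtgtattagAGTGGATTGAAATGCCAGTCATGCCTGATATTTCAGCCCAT

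ESRP1 (gene ID 54845) is, per length, the more strongly expressed of the 2 epithelial splicing regulators in all 4 libraries. It measured 279.8 CPM at day 0, 146 CPM at day 2, 103 CPM at day 3 and 54.7 CPM at day 4, from 1443, 743, 535 and 301 expected counts. Each day lay below the one before beyond counting error. The level was 1.92-fold lower at day 2 than at day 0 (1.76 to 2.10), 1.41-fold lower at day 3 than at day 2 (1.26 to 1.58) and 1.89-fold lower at day 4 than at day 3 (1.64 to 2.18). No single step reached the 2-fold rule on log2(CPM + 1), where the differences were -0.94, -0.49 and -0.91.

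ESRP2 (gene ID 80004), its paralog with overlapping exon targets, measured 61.7 CPM at day 0, 36.7 CPM at day 2, 32.7 CPM at day 3 and 28.9 CPM at day 4. Day 2 was 1.68-fold lower than day 0 (1.40 to 2.02). Days 2 and 3 did not differ beyond counting error, nor did days 3 and 4. The later steps therefore differ in size: ESRP1 was 2.66-fold lower at day 4 than at day 2 (2.33 to 3.06), against 1.27-fold for ESRP2 (1.02 to 1.58). On the FPKM scale, which divides by transcript length, ESRP1 stood at 5.01, 4.39, 3.46 and 2.10 times the level of ESRP2 at days 0, 2, 3 and 4. Both genes together summed to 93.9, 48, 35.8 and 22.2 FPKM. Both were thus still listed well above 0 at day 4, with 301 and 159 expected counts.

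The 2 regulators linked to mesenchymal splicing, QKI and RBFOX2, stayed within 2-fold over the 4 days, and both were lower at day 4 than at day 3. QKI (gene ID 9444), a STAR-family RNA-binding protein, measured 374 CPM at day 0, 456 CPM at day 2, 445 CPM at day 3 and 355 CPM at day 4. Days 2 and 3 were the highest and did not differ beyond counting error, nor did days 0 and 4. QKI was 1.22-fold higher at day 2 than at day 0 (1.15 to 1.29) and 1.25-fold lower at day 4 than at day 3 (1.18 to 1.33). RBFOX2 (gene ID 23543), which binds GCAUG elements beside alternative exons, measured 224 CPM at day 0, 269 CPM at day 2, 351 CPM at day 3 and 263 CPM at day 4. Day 3 was its highest, and days 2 and 4 did not differ beyond counting error. RBFOX2 was 1.56-fold higher at day 3 than at day 0 (1.45 to 1.69).

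With the epithelial regulators lower and these 2 within 2-fold of their day 0 level, the balance between them differed by day. The ratio of QKI to the sum of ESRP1 and ESRP2, on the FPKM scale, was 0.389, 0.907, 1.19 and 1.47 at days 0, 2, 3 and 4. The same ratio for RBFOX2 was 0.348, 0.781, 1.39 and 1.69. Both ratios thus exceeded 1 from day 3 on. At the level of the numerators, QKI was 36.5, 43.6, 42.7 and 32.5 FPKM and RBFOX2 was 32.6, 37.5, 49.7 and 37.5 FPKM. QKI was thus no higher at day 4 than at day 0, so the rise of its ratio lies in the ESRP sum. For RBFOX2, most of the difference between day 4 and day 0 lies there. Its ratio at day 3 also holds its highest numerator.

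The muscleblind genes went different ways at the first step. MBNL1 (gene ID 4154) measured 35.3 CPM at day 0, 14.1 CPM at day 2, 27.6 CPM at day 3 and 40.9 CPM at day 4, from 182, 72, 143 and 225 expected counts. Its lowest value was at day 2, and days 0 and 4 did not differ beyond counting error. MBNL1 was 2.50-fold lower at day 2 than at day 0 (1.89 to 3.33) and 2.90-fold higher at day 4 than at day 2 (2.21 to 3.83). MBNL2 (gene ID 10150) measured 5.04 CPM at day 0, 23.3 CPM at day 2, 39.8 CPM at day 3 and 47.8 CPM at day 4, from 26, 119, 206 and 263 expected counts. It was 4.63-fold higher at day 2 than at day 0 (3.01 to 7.38) and 1.71-fold higher at day 3 than at day 2 (1.35 to 2.16), while days 4 and 3 did not differ beyond counting error. The pair are the 2 genes of the 10 past the 2-fold rule at day 2 with day 0, 1 in each direction, where 12.9% of 15379 genes were higher and 8.81% lower, 21.7% in all. None of the 10 was past it at day 3 with day 2 (9.32% of 15286 genes) or at day 4 with day 3 (7.21% of 15367 genes).

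Per length, the makeup of the pair differed by day. MBNL1 stood at 6.59, 2.56, 5.08 and 7.69 FPKM, and MBNL2 at 1.08, 4.88, 8.39 and 10.2 FPKM. MBNL2 thus made up 14.1% of their sum at day 0 and 65.6, 62.3 and 57.0% at days 2, 3 and 4. The sum itself was near level at first and higher later, at 7.67, 7.44, 13.5 and 17.9 FPKM.

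PTBP1 (gene ID 5725), also called polypyrimidine tract-binding protein, had the highest level of the 10 genes per length, at 213, 179, 176 and 173 FPKM. It measured 692 CPM at day 0, 606 CPM at day 2, 592 CPM at day 3 and 574 CPM at day 4. Day 0 was the highest. Days 2 and 3 did not differ beyond counting error, nor did days 3 and 4, while day 4 was 1.06-fold lower than day 2 (1.004 to 1.11). PTBP1 was 1.21-fold lower at day 4 than at day 0 (1.15 to 1.26).

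**Figure D1:**
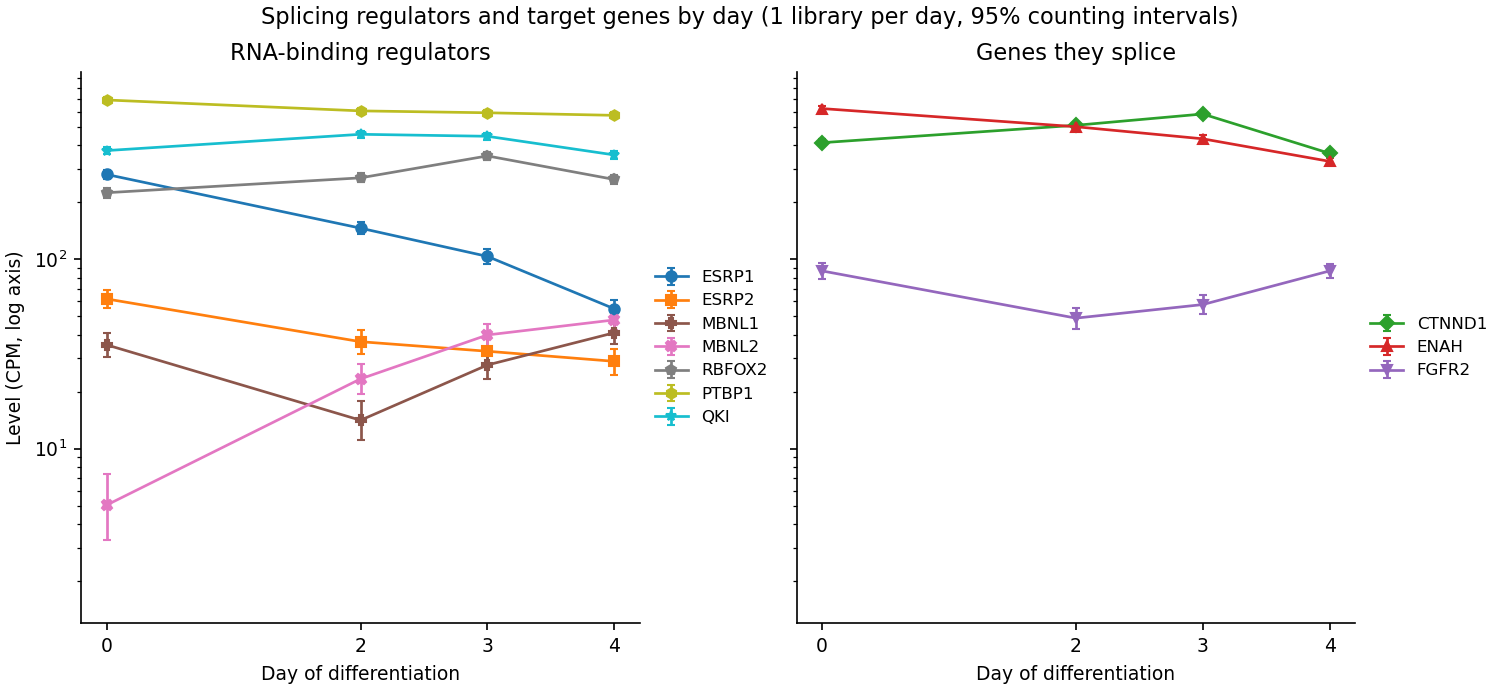
Levels in CPM (log axis) of the 7 regulators, left, and the 3 genes they splice, right, against day of differentiation, with 1 library per day and bars for 95% counting intervals. ESRP1 is lower at each later day, at 54.7 CPM at day 4 against 279.8 CPM at day 0, MBNL2 is higher, at 47.8 against 5.04 CPM, and FGFR2 has the same 86.7 CPM at days 4 and 0.

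The 3 spliced genes differed in their total levels. ENAH (gene ID 55740) measured 623 CPM at day 0, 499.8 CPM at day 2, 432 CPM at day 3 and 328 CPM at day 4. Each day lay below the one before beyond counting error, and day 4 was 1.90-fold lower than day 0 (1.79 to 2.01), a difference of -0.92 on log2(CPM + 1) that falls just short of the 2-fold rule. CTNND1 (gene ID 1500) measured 412 CPM at day 0, 509 CPM at day 2, 583 CPM at day 3 and 362 CPM at day 4. It peaked at day 3, and its 4 levels all differed beyond counting error. CTNND1 was 1.61-fold lower at day 4 than at day 3 (1.52 to 1.71).

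FGFR2 (gene ID 2263) measured 86.7 CPM at day 0, 48.8 CPM at day 2, 57.6 CPM at day 3 and 86.7 CPM at day 4. Days 0 and 4 were alike to within counting error, with a ratio of 1.0 (0.877 to 1.14), and days 2 and 3 were lower and did not differ from each other beyond it. FGFR2 was 1.77-fold lower at day 2 than at day 0 (1.52 to 2.08) and 1.51-fold higher at day 4 than at day 3 (1.3 to 1.75). The related receptor genes, whose transcripts have a like exon choice, measured 311, 225, 380 and 336 CPM (FGFR1) and 8.53, 50.6, 57.6 and 60.0 CPM (FGFR3) at days 0, 2, 3 and 4.

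Over all 10 genes the median difference of log2(CPM + 1) was -0.13 at day 4 with day 0, against 0.03 over all genes tested, and -0.25 at day 4 with day 3, against -0.01. At day 2 with day 0 it was -0.25, against -0.000898, and at day 3 with day 2 it was 0.08, against 0.00. These comparisons share libraries with one another.

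**Figure D2:**
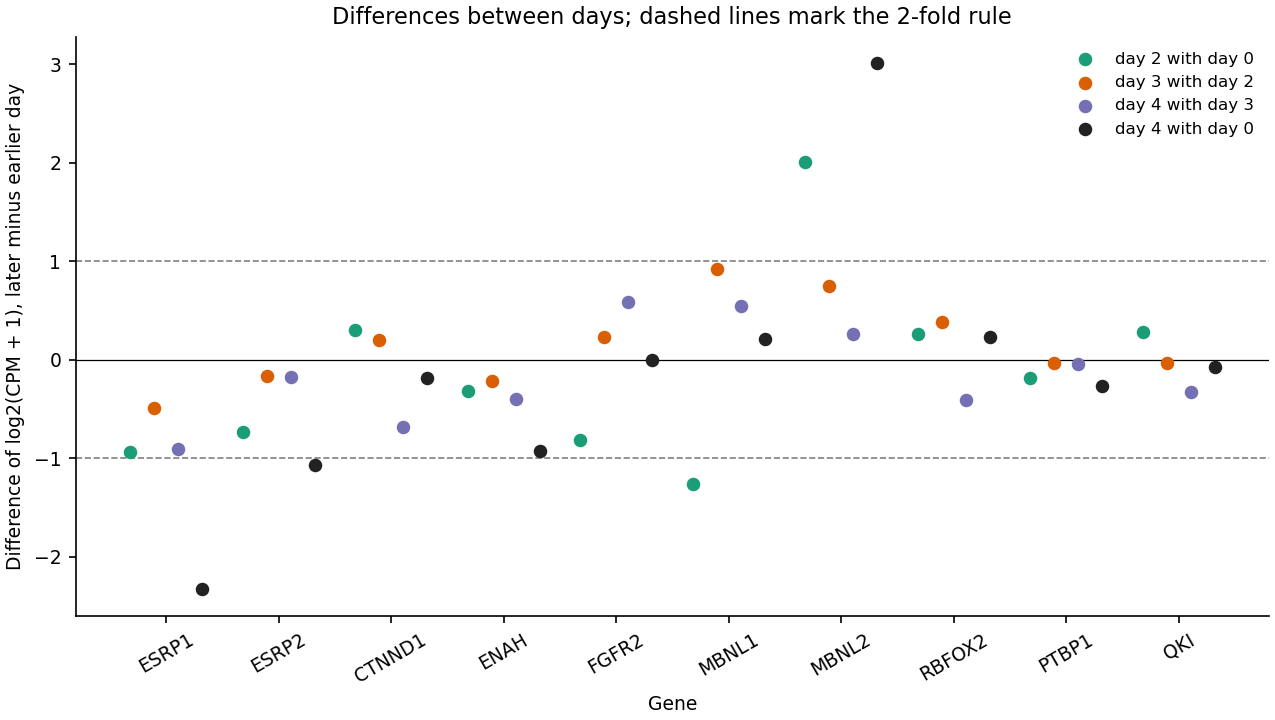
Difference of log2(CPM + 1), later minus earlier day, for each of the 10 genes in 4 comparisons of single libraries, with dashed lines at the 2-fold rule. MBNL2 lies furthest above 0 and ESRP1 furthest below it at day 4 with day 0, and no gene passes a dashed line at day 3 with day 2 or at day 4 with day 3.

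The deposited transcript length of a gene is the authors' average over its isoforms, and it can differ between libraries only where isoform shares do. Of 15615 genes listed in all libraries, 0 of the 8881 with a single transcript ID had a length that differed between days, while 5859 of the 6734 with several did. Among the 10 genes, ESRP2 has a single transcript, at 4021 bp throughout, and so carries no such information. No error of the length is given in the data, and each is an estimate from 1 library.

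QKI had the largest range of length among the 10. It averaged 10365 bp at day 0, 10163 bp at day 2, 10265 bp at day 3 and 10800 bp at day 4. Day 4 was the longest, by 534 bp or 5.21% over day 3 and by 435 bp or 4.19% over day 0. The range over the 4 days was 6.27%, and 18.5% of genes with several transcripts and at least 1 CPM every day had a larger one. The GENCODE v29 transcripts with the same IDs are 5685 to 9463 bases long, all shorter than the deposited averages, so the models behind the deposited values differ from these. Which of the listed QKI transcripts gained share at day 4 cannot be read from the length.

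MBNL1 averaged 5438 bp at day 0, 5382 bp at day 2, 5378 bp at day 3 and 5280 bp at day 4, where it was shortest. Its length at day 4 was 157 bp below that at day 0, a change of -2.89%. MBNL2 averaged 4755 bp at day 0, 4663 bp at day 2, 4692 bp at day 3 and 4659 bp at day 4. Day 0 was the longest and rests on 26 expected counts. Both ranges, of 157 and 95.8 bp, exceed the 36 bases of the shared exon. If reads fell evenly along the transcript, the exon would hold 0.197 to 2.03 counts in a library, too few to be read on its own.

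FGFR2 averaged 3670 bp at day 0, 3670 bp at day 2, 3614 bp at day 3 and 3698 bp at day 4. Day 3 was the shortest and day 4 the longest, 83.9 bp or 2.32% apart. The 2 exons that exchange are of nearly the same length, so an exchange of one for the other would hardly show in this measure. With even coverage exon IIIb would hold 18.0, 10, 12.2 and 19.1 counts in transcripts that all carried it.

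CTNND1 averaged 5991 bp at day 0, 6000 bp at day 2, 6068 bp at day 3 and 5947 bp at day 4. Day 3 was the longest, and day 4 was 120.5 bp below it. In the GENCODE models the 7 transcripts with the most upstream coding start, the p120 isoform 1 group known from mesenchymal cells, had a median length of 6226 bases. The 8 with the third start, the isoform 3 group known from epithelial cells, had 5750 bases, 476 fewer. The 7 with the second start, the isoform 2 group, had 5994 bases, close to the deposited averages at days 0 and 2. The deposited averages at all 4 days lie between the isoform 1 and isoform 3 medians. They cannot be turned into shares of these groups, and the models behind them may differ from those of GENCODE. Exons A, B and C add up to 63, 87 and 18 bases, so starts, exons and untranslated ends all enter the same average and were not separated.

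ENAH averaged 13162 bp at day 0, 13161 bp at day 2, 13146 bp at day 3 and 13161 bp at day 4. The differences from day 0 were -1.56 bp at day 2, -16.8 bp at day 3 and -1.35 bp at day 4, so day 3 was the one short value. Exon 11a is the one coding difference between its 2 transcripts. In the GENCODE models the 2 transcripts are 2758 and 13168 bases long, since their untranslated ends differ as well, so the deposited length cannot be turned into a share of transcripts with the exon. With even coverage the exon would hold 15.4, 12.2, 10.7 and 8.64 counts at full inclusion. The day 3 length, like the others, comes without an error estimate.

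ESRP1 averaged 3642 bp at day 0, 3643 bp at day 2, 3688 bp at day 3 and 3629 bp at day 4, a range of 1.65%. The lengths of PTBP1 and RBFOX2 ranged by 0.574 and 0.182%, with RBFOX2 between 6958 and 6970 bp. ENAH had the smallest range of the 9 genes with several transcripts, 0.128%. For comparison, the median range was 1.52% over 5953 genes with several transcripts and at least 1 CPM every day, and 0.978% over 3265 such genes with at least 20 CPM every day.

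**Figure D3:**
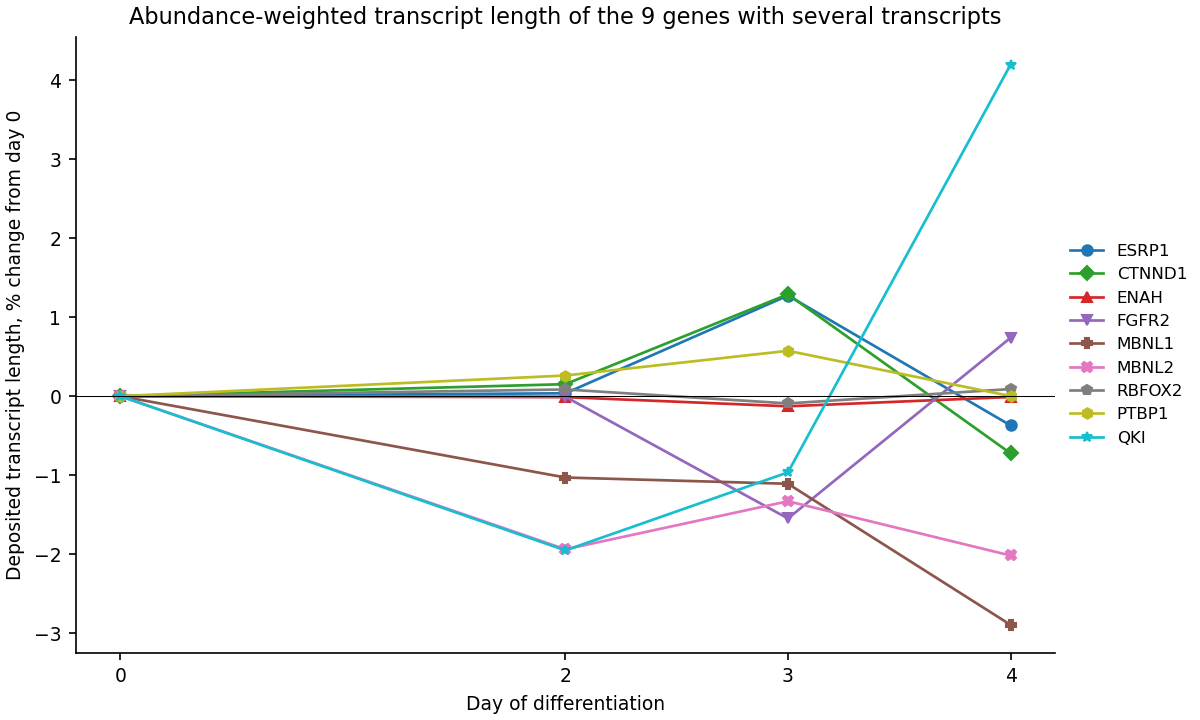
Percent change of the deposited transcript length from day 0, by day, for the 9 genes with several transcripts (1 library per day). QKI stands alone at day 4, 4.19% above day 0, and MBNL1 is lowest there, with a change of -2.89%.

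No gene of the 10 changed in length by at least 10% of the shorter value at day 2 with day 0, day 3 with day 2, day 4 with day 3 or day 4 with day 0, where 2.47, 2.06, 2.35 and 2.83% of all genes with at least 1 CPM in both libraries did. Of genes with several transcripts, 5.54, 4.64, 5.29 and 6.33% did. At a threshold of 2%, added after the data were seen, QKI was longer and MBNL1 and MBNL2 shorter at day 4 than at day 0. These are 3 of the 9 genes with several transcripts, and of all such genes 12.5% were longer and 16.0% shorter by that much. At day 4 with day 3, QKI and FGFR2 were longer and CTNND1 shorter, where 11.4% of such genes were longer and 15.7% shorter. At day 2 with day 0 and at day 3 with day 2, 0 of the 9 passed that threshold, where 26.6 and 26.2% of such genes did, and at day 4 with day 2 it was 1, QKI, where 27.1% did.

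**Figure D4:**
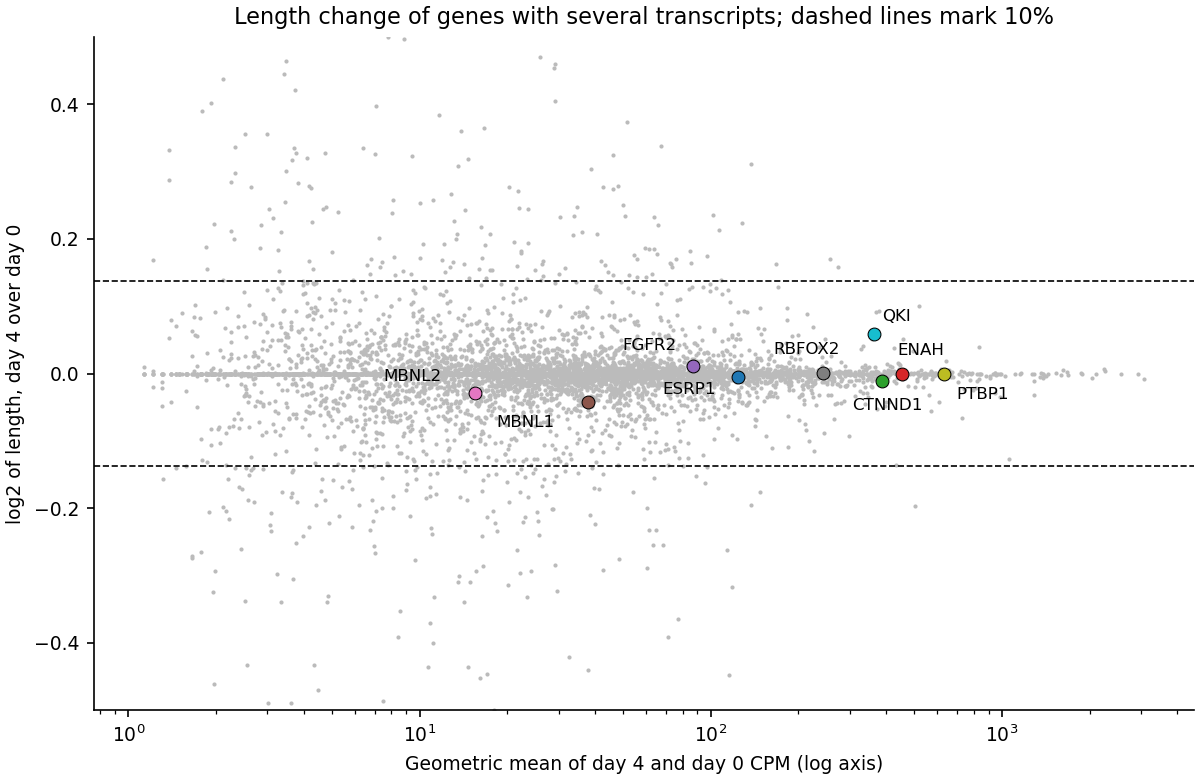
log2 ratio of deposited length, day 4 over day 0, against the geometric mean level in CPM (log axis) for 6112 genes with several transcripts (grey; 49 lie outside the vertical range), with 9 of the 10 genes in colour and dashed lines at 10%. All 9 lie between the dashed lines, with QKI highest and MBNL1 lowest.

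Of 5 paralogs of the regulators tested at day 4 with day 0, 1 was past the 2-fold rule upward and 2 were past it downward. Of all genes, 16.1% were past it upward and 11.9% downward. MBNL3, the third muscleblind gene, measured 10.1, 105, 94.7 and 37.4 CPM at days 0, 2, 3 and 4, so that it was high at the 2 middle days, and at day 4 it was 3.71-fold above day 0 (2.73 to 5.13). RBFOX3, the neuronal member of its family, measured 11.4, 2.55, 1.35 and 1.27 CPM and was 8.99-fold lower at day 4 than at day 0 (4.10 to 23.3). PTBP2, the neuronal paralog of PTBP1, measured 90.2, 51.2, 58.2 and 44.5 CPM, 2.03-fold lower at day 4 (1.73 to 2.37).

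Among 23 other tissue-regulated splicing factors tested, the 2-fold rule marked 3 as higher and 8 as lower at day 4 than at day 0. It marked 16.1% of all genes as higher and 11.9% as lower. The median difference was -0.41, against 0.03 over all genes. RBM24, a factor of heart and muscle splicing, measured 0.388, 38.4, 41.0 and 32 CPM at days 0, 2, 3 and 4, 82.5-fold higher at day 4 than at day 0 (22.5 to 686) from 2 counts at day 0. RBMS3 measured 0.776, 7.85, 18.7 and 38.2 CPM, 49.2-fold higher (18.9 to 182). CELF5 had 0.545 CPM at day 4, against 12.6 CPM at day 0, and was 23.1-fold lower (7.57 to 115). The others among the 8 lower factors were NOVA1, NOVA2, SRRM3, SRRM4, ELAVL2, RBM11 and RBM47. Of these, RBM47, named after its values were seen, is known as an epithelial splicing regulator and measured 141, 33.5, 20.7 and 16.7 CPM.

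In the general splicing machinery no gene passed the rule. Of 25 general splicing repressors and activators and of 31 core spliceosome genes, 0 were past the 2-fold rule in either direction at day 4 with day 0, where 27.9% of all genes were. Their medians were -0.31 and -0.16. SRSF1, an SR protein, measured 988, 733, 608 and 600.0 CPM at days 0, 2, 3 and 4, 1.65-fold lower at day 4 than at day 0 (1.58 to 1.72), and SRSF4 was 1.66-fold higher (1.51 to 1.82). SF3A3, a subunit of the U2 particle, had 163 CPM at day 4, against 260 CPM at day 0, and was 1.60-fold lower (1.47 to 1.74).

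Of 27 other genes known to be spliced differently in epithelial and mesenchymal cells, the 2-fold rule marked 2 as higher and 2 as lower at day 4 than at day 0. It marked 16.1% of all genes as higher and 11.9% as lower. CD44, the hyaluronan receptor whose variable exons ESRP1 retains, measured 12, 26.9, 78.7 and 188 CPM at days 0, 2, 3 and 4, and was 15.6-fold higher at day 4 than at day 0 (12.1 to 20.6). FGFR3 was 7.03-fold higher (5.12 to 9.86) and SLC37A2 3.40-fold lower (2.62 to 4.46). The fourth was LSR, a receptor of tricellular junctions, with 37.6 CPM at day 4 against 110.0 CPM at day 0. LSR is also on the list of epithelial genes below and is counted as lower in both lists.

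The lengths of 1 of these 27 genes, 23 of them with several transcripts, changed by at least 10% at day 4 with day 0, where 6.33% of genes with several transcripts did. It was KIF13A, a kinesin motor, which averaged 5605, 6012, 6160 and 6588 bp at days 0, 2, 3 and 4, 17.5% longer at day 4. CD44 averaged 4888, 4200, 4628 and 4526 bp, a change of -7.41% at day 4 with day 0, where its day 0 length rests on 62 counts. OSBPL3 changed by -2.09%.

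Of the 25 epithelial genes, 1 was at least 2-fold higher and 11 were at least 2-fold lower at day 4 than at day 0. The higher gene, DSP, measured 180, 506, 696 and 460 CPM at days 0, 2, 3 and 4. The other 13 were neither. They include JUP, at 135 CPM at day 0 and 236 CPM at day 4, and EPCAM, at 256 and 204 CPM. CDH1, the epithelial cadherin that p120-catenin binds, measured 464, 300.1, 166 and 89.6 CPM at days 0, 2, 3 and 4, 5.18-fold lower at day 4 than at day 0 (4.70 to 5.72). MARVELD3, a tight junction protein, was 4.03-fold lower (3.05 to 5.40) and GRHL2, an epithelial transcription factor, 3.87-fold lower (2.89 to 5.25). Of 16 mesenchymal genes and EMT factors tested, 15 were at least 2-fold higher and 0 lower. Over all genes tested, 16.1% were higher and 11.9% lower by the same rule. CDH11, a mesenchymal cadherin, had 510 CPM at day 4 against 7.95 CPM at day 0 and was 64.2-fold higher (47.2 to 89.6).

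**Figure D5:**
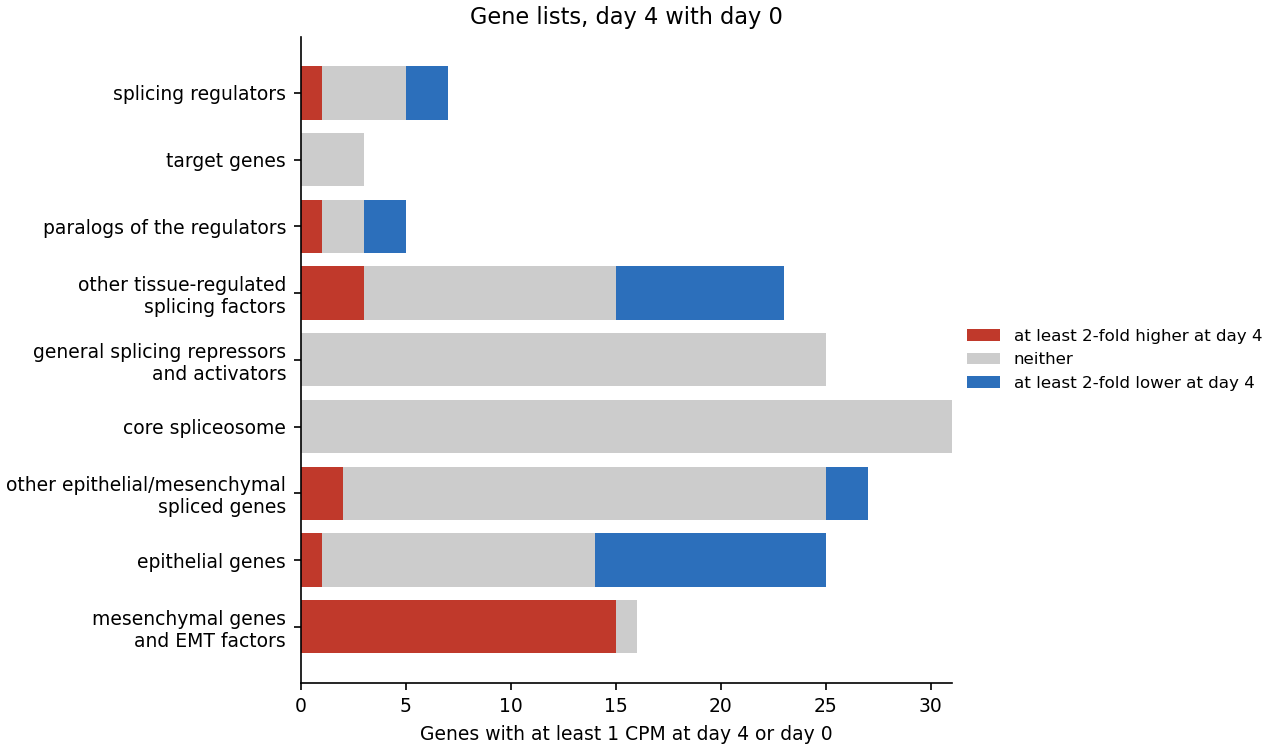
Number of genes in each list that were at least 2-fold higher, at least 2-fold lower or neither at day 4 with day 0, among genes of 1 CPM or more in either library. The 25 general splicing genes and the 31 core spliceosome genes hold none past the rule, while 11 of 25 epithelial genes were lower and 15 of 16 mesenchymal genes higher.

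The genes whose course over the 4 days was nearest to that of ESRP1, by Euclidean distance of mean-centred log2(CPM + 1) among 13153 genes, were ARHGEF19 (distance 0.049), SIX4 (0.126) and ZNF488 (0.165). ARHGEF19, a guanine nucleotide exchange factor, measured 33.7, 17.3, 11.8 and 5.63 CPM at days 0, 2, 3 and 4. Nearest to ESRP2 were TMEM167A, SPIN3 and PIAS2, at distances of 0.052 to 0.060, and nearest to QKI were SPTY2D1, RNF111 and CCDC93, at 0.036 to 0.040. With 4 points per gene and 1 library per day, such nearness is a description of these libraries.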

How the data were processed

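RNA sequencing of H1 cells at days 0, 2, 3 and 4 was used, with 1 library per day. Each deposited table gives, per Entrez gene, the authors' expected count, transcript length in bp and FPKM, per the file headers. The submitters' processing notes name BWA, Bowtie, RSEM and hg19, and the series' design text also speaks of TopHat and Cufflinks. For the role and version of each tool: not given in the sources used here. All CPM rest on the deposited expected count, rounded to whole numbers. The deposited FPKM was used for levels between genes and for 1 alternative, and the deposited length as given. A gene absent from a table was taken as 0 in it.

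TMM factors from edgeR 4.0.16 (R 4.3.3) were 1.02, 0.981, 0.995 and 1.00. Everything else ran in Python 3.11.15: pandas 2.3.3 and numpy 2.4.6 for tables, scipy 1.17.1 for intervals, and matplotlib 3.10.9. Symbols came from a RefSeq table, which matched 19273 of 19390 IDs. Without replicates, rules of size replaced tests: a difference of at least 1 in log2(CPM + 1), and a length change of at least 10% of the shorter value. Intervals are exact Poisson for CPM and exact conditional binomial (Clopper-Pearson) for ratios, at 95%. The 2-fold rule and the ratio intervals were tried on simulated Poisson counts, and the length rule on a few made-up values. The simulated counts held no variation between cultures, so the check says nothing about it.

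The members and gene lists were chosen with earlier results of these data known. Named genes are all 10 members, up to 3 genes per list with the largest difference between days 4 and 0 among those with at least 5 CPM in either (for the other spliced genes also up to 3 by length), and the 3 genes nearest to ESRP1, ESRP2 and QKI. Alternatives were pseudocounts of 0.1 and 5, other size factors, other filters and thresholds, and FPKM.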

Additional observations from a re-analysis of the deposited data

How the results depend on the processing

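With 1 library per day, no library could be left out and no error between cultures can be given. No paired analysis was possible because each day has a single library and no result comes from a test. Of 200 log2 ratios of the 10 genes under alternatives, 199 met a rule of small change. They lay inside the counting interval or moved by no more than the distance from its middle to its ends. The sign turned in 3, all of FGFR2 at day 4 with day 0, which was 0.00 and became -0.03 with median-of-ratios size factors, -0.03 on total counts and -0.04 on FPKM. No ratio past the 2-fold rule changed sign. The 1 that moved by more was MBNL2, which at day 4 with day 0 was 2.39 with a pseudocount of 5, against 3.01. Among the 10 genes, 2 were past the 2-fold rule at day 2 with day 0 but 1, MBNL2, at a 4-fold threshold. At day 4 with day 0, 3 were past it but 2 with a pseudocount of 5 or at 4-fold, without ESRP2. Length changes at day 4 with day 3 numbered 0 at 10%, 1 at 5% (QKI) and 3 at 2%, and at day 4 with day 0 they numbered 0 at 10% and 3 at 2%. The counts over all genes behind the background shares depend on the setting. At day 4 with day 0 they were 2514 higher and 1860 lower, 1560 and 1056 with a pseudocount of 5, and 981 and 538 at 4-fold. At day 2 with day 0 they were 1978 and 1355, 1231 and 633 with a pseudocount of 5, and 712 and 297 at 4-fold. At day 3 with day 2 they were 889 and 536, 1300 and 847 with a pseudocount of 0.1, 374 and 192 with 5, 614 and 352 at a minimum of 5 CPM, and 202 and 62 at 4-fold. At day 4 with day 3 they were 455 and 653, 751 and 1062 with 0.1, 127 and 206 with 5, 261 and 443 at a minimum of 5 CPM, and 58 and 35 at 4-fold. Lengths of genes with few counts, such as MBNL2 at day 0, are the least certain.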
